A study of Mus musculus with 12 samples.

Results

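The genes of cholesterol synthesis, uptake and efflux were followed in mouse kidney cortex through a listed set of 32 genes, found in the deposited expression table by Ensembl identifier and named by GENCODE M21 symbol. All 32 genes were present among the 47719 genes of the table, and all 32 were among the 14109 genes tested, those that reached 1 FPKM in 3 or more of the 12 libraries. FPKM counts sequenced fragments for each kilobase of a transcript, scaled by library, so levels of different genes can be set side by side. By role, 8 genes encode enzymes from acetyl-CoA to the isoprenoids, 11 encode enzymes from squalene to cholesterol, 5 regulate the SREBP transcription factors, 3 move sterol inside the cell, and 5 belong to the LXR and efflux arm.

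The 12 libraries, 3 in each of 4 groups, were of C57BL6/J males whose age the labels give as 8 weeks. The group PF was pair-fed an isocaloric diet with maltose-dextrin for 6 weeks, and the group EtOH received the Lieber-DeCarli liquid diet, in which ethanol was raised in steps to 6%, for the same 6 weeks. Both of these groups received a saline injection 4 hours before tissue collection. The groups PF4hLPS and EtOH4hLPS had the same diets and received 10 mg/kg lipopolysaccharide (LPS, from the outer membrane of E. coli) intraperitoneally 4 hours before. The labels give whole kidney as the source and cortex as the region, and the protocol describes cortex sections. The series design asks what LPS changes within each diet, and what the ethanol diet changes in saline-injected mice, in LPS-injected mice and on average. The labels do not say that each library came from a separate mouse, so the p-values reflect library-to-library spread, which may in part be technical.

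Cells make cholesterol from acetyl-CoA through mevalonate, isoprenoids, squalene and lanosterol. When membrane sterol is low, SCAP carries the SREBP precursors from the endoplasmic reticulum to the Golgi, where they are cleaved into active transcription factors that switch on the enzymes of synthesis; INSIG proteins hold SCAP back when sterol is plentiful. When sterol is in excess, oxysterols activate the LXR receptors, which switch on efflux transporters and MYLIP, a ubiquitin ligase that sends lipoprotein receptors to degradation. In the kidney the proximal tubule takes up filtered and circulating lipid and makes sterol itself, and sterol accumulation is a known feature of kidney injury.

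Proximal tubule markers were abundant in every library, with Slc34a1, the phosphate transporter of that segment, at 465 to 931 FPKM. Markers of adrenal cortex, a steroid-making gland next to the kidney, summed to 1.24 to 3.03 FPKM per library, with Cyp11b2 at 0 in all 12 libraries. The table holds no fragment counts. The most common ratio of low values in PF library 1 to those in another library was 0.491 to 0.763 for the 6 LPS libraries. It was 0.719 to 1.2 for the other 5 saline libraries. Depth and the scaling by library cannot be told apart in this ratio. Genes above 0 numbered 25153 in PF4hLPS library 2 (ratio 0.491) and 23188 in PF library 3 (ratio 1.2). In PF4hLPS library 2, EtOH4hLPS library 1 and PF library 1, genes of high GC content were low relative to the other libraries of the same group (slopes of -0.412, -0.308 and -0.248 log2 units for 10% of GC, while the other 9 libraries had -0.0769 to 0.214). In PF4hLPS library 2, 15 of the 19 sterol genes with GC above the median of all genes tested were the lowest of their group, as were 3 of the other 13. Fold changes below were given on the log2(FPKM + 1) scale, which shrinks the change of weakly expressed genes, with the standard error (SE) of the limma fit, and calls were made at a Benjamini-Hochberg adjusted p under 0.05 over all 14109 genes.

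**Figure D1:**
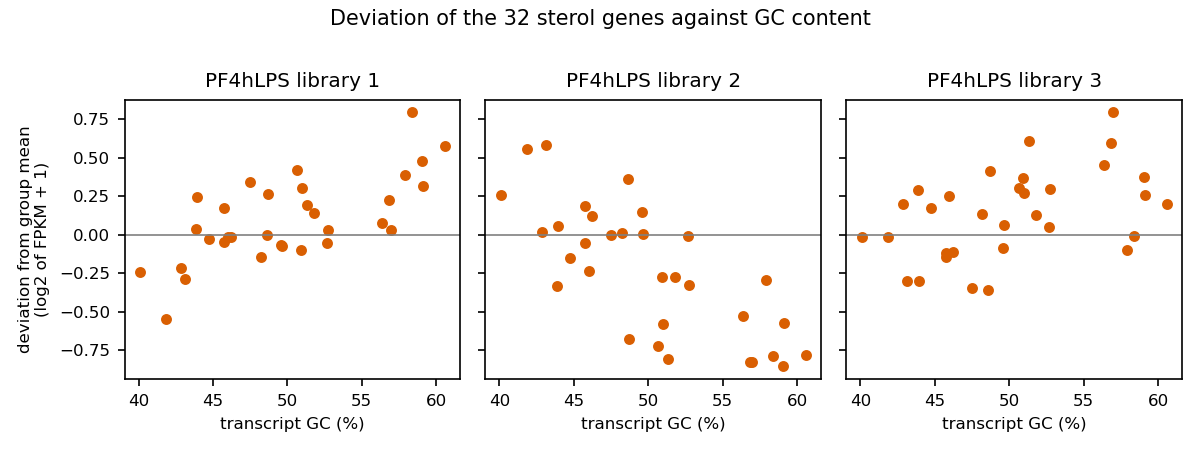
Each point is 1 of the 32 sterol genes in 1 of the 3 PF4hLPS libraries. The x axis is the GC content of the transcript in percent, and the y axis is the gene's log2(FPKM + 1) minus its mean over the 3 libraries. In library 2 the genes of high GC lie below 0, with a mean of -0.452 over the 19 genes above the median GC of all genes.

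RefSeq promoter sequences (GRCm38.p6, 250 bases before to 50 after the start) were matched by symbol for 26 of the 32 genes, and Npc1, Fdft1, Stard4, Sqle, Fdps and Abcg1 were not matched. The motifs searched on both strands were TCACNCCAC, the core of the sterol regulatory element bound by SREBP, CCAAT, the box bound by NF-Y, a factor that works beside SREBP, and CACGTG, an E-box. CCAAT was found for 21 of the 26 genes (80.8%), against 41.1% of the 27025 genes of the promoter table. CACGTG was found for 6 genes (23.1%, against 8.09% of all), and TCACNCCAC for Hmgcs1 alone (3.8%, against 1.44% of all). A gene was counted if any of its promoters held the motif, with 35 promoters for the 26 genes and 32851 for the 27025. These shares were not matched for the number of promoters or for base composition. The matches are descriptions of letters in the window, not binding sites.

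The following stretches are printed because Mylip, Msmo1 and Abca1 rose with LPS in the data and Hmgcs1 holds the TCACNCCAC match. They were read from RefSeq on GRCm38.p6 and run 5′ to 3′ on the gene's strand. The first 3 are the 250 bases before the RefSeq start of Mylip (chr13:45389492-45389741, plus strand), Msmo1 (chr8:64733579-64733828, minus strand) and Abca1 (chr4:53159896-53160145, minus strand). For Msmo1 the RefSeq and GENCODE M21 starts differ. The GENCODE gene (64718139 to 64733792) reaches into the printed stretch, and the CCAAT matches marked there lie inside that gene. The last is a 99-base window of Hmgcs1 (chr13:119690169-119690267, plus strand). Capitals mark CCAAT, or its reverse complement ATTGG, in Mylip and Msmo1, and CACGTG in Abca1. In Hmgcs1 they mark ATTGG and the TCACNCCAC match, which begins 137 bases before the start. None of the matches overlap in these stretches.
Mylip: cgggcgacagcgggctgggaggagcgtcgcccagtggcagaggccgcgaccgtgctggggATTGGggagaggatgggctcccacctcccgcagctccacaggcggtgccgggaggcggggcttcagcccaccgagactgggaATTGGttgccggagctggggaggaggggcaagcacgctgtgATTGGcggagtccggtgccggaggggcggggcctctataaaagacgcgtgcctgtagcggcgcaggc
Msmo1: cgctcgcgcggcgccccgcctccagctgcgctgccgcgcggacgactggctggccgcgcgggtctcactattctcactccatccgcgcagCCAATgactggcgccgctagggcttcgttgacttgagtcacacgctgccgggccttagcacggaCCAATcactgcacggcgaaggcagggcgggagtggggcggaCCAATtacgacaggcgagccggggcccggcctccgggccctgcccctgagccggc
Abca1: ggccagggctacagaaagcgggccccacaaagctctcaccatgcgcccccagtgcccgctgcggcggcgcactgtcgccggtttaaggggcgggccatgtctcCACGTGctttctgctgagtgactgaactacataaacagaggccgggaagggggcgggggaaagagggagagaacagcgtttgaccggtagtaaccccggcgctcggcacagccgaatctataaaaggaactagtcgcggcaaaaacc
Hmgcs1: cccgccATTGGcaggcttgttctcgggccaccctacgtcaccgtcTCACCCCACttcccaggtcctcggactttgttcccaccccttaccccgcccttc
Mylip and Msmo1 each held 3 CCAAT boxes in this window, and Abca1 held 1 CACGTG.

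Most sterol genes did not pass the test after LPS, and those that did were spread over synthesis, transport and efflux. In pair-fed mice 5 of 32 rose and 2 fell, that is 21.9% of the members, against 18.2% of all genes tested that changed in either direction (11.3% that rose and 6.89% that fell). In ethanol-fed mice 3 rose and 1 fell (12.5%, against 17.1% of all genes; 10.7% rose and 6.39% fell). The members' shares thus lay near those of all genes. The median log2 fold change of the 32 genes was -0.04 in both diets, beside -0.01 (pair-fed) and 0.02 (ethanol) over all genes. At an unadjusted p under 0.05 there were 8 members in pair-fed mice (background 31.2%) and 9 in ethanol-fed mice (28.3%). The groups did not overlap for 7 members that were higher and 2 that were lower in pair-fed mice (background 18.5% and 15.7%), and for 6 and 5 in ethanol-fed mice (18.8% and 14.8%). With libraries scaled to equal total FPKM the median of all genes shifted to -0.41 and -0.26. Then 2 members rose and 2 fell in PF4hLPS, where Ggps1, Msmo1 and Abca1 lost their calls, and 0 rose and 2 fell in EtOH4hLPS, where Ggps1, Fdft1 and Abca1 lost theirs (adjusted p = 0.0607 for Abca1). With the GC trend removed from each library, 8 members passed in pair-fed mice (Fdft1 added) and 6 in ethanol-fed mice (Mvk and Sc5d added).

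**Figure D2:**
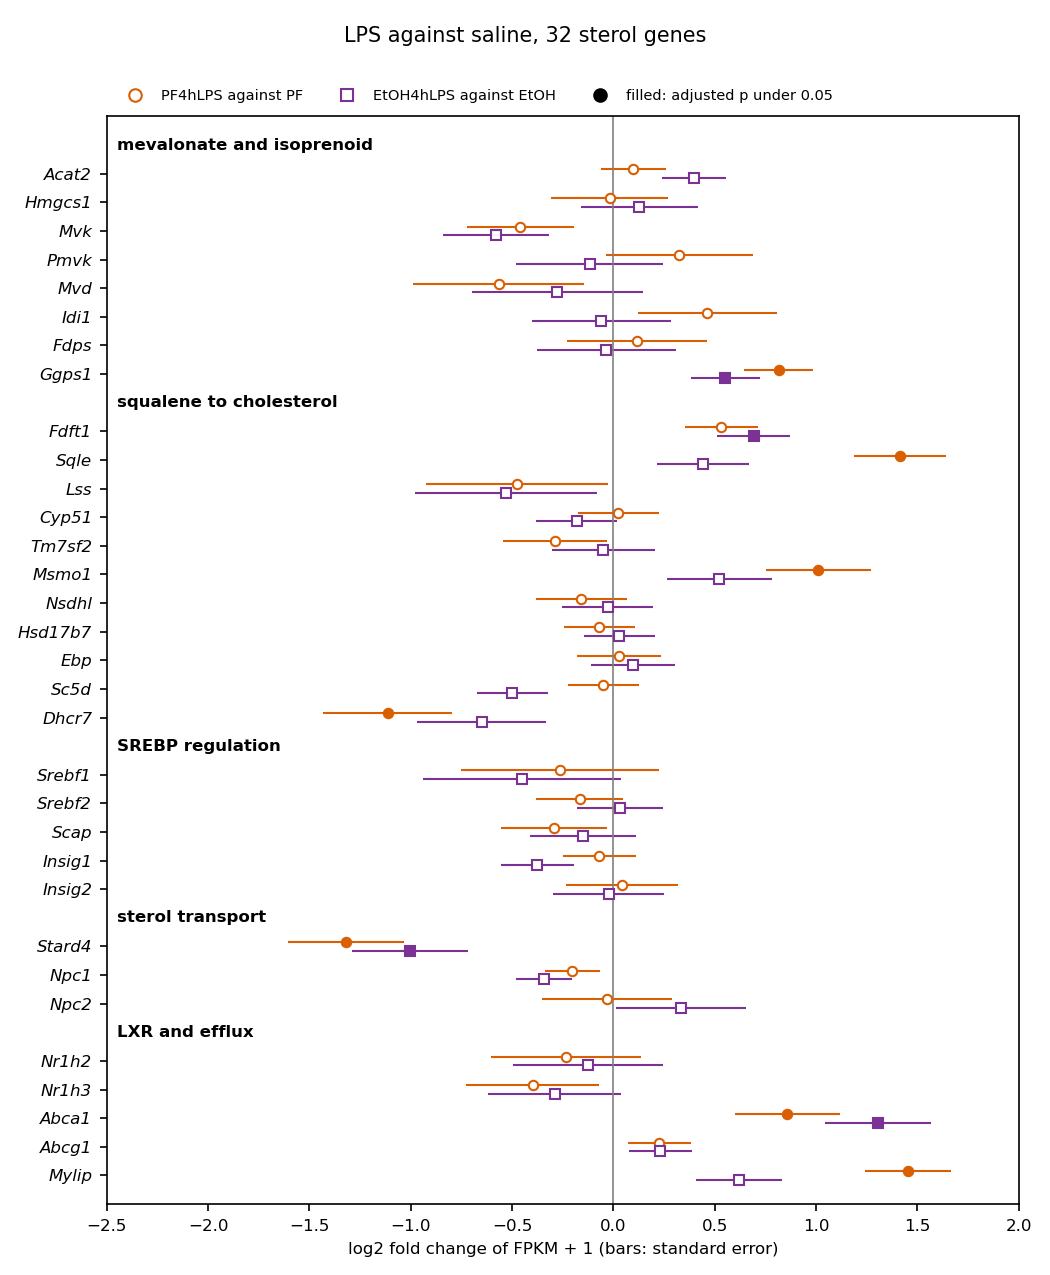
The x axis is the log2 fold change of FPKM + 1 for LPS against saline, with bars of 1 standard error, and the y axis lists the 32 genes by role. Circles are pair-fed and squares ethanol-fed mice, and filled symbols mark an adjusted p under 0.05. Mylip (1.45), Sqle (1.41) and Msmo1 (1.01) lie farthest right in pair-fed mice, and Stard4 lies left of 0 in both diets (-1.32 and -1.01).

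The steps from acetyl-CoA to farnesyl and geranylgeranyl pyrophosphate gave 1 gene that passed the test. Ggps1, which makes the geranylgeranyl pyrophosphate used to lipidate small GTPases (ENSMUSG00000021302, chromosome 13, 14050659 to 14063488, mm10), was measured at 14.5, 14.3 and 12.5 FPKM in PF and at 20.9, 30.1 and 24.7 in PF4hLPS. The EtOH libraries gave 12.6, 14.5 and 16.5 FPKM and the EtOH4hLPS libraries 24.6, 20.1 and 20.4. Every LPS library lay above every saline library of either diet. The means were 13.8 ± 1.09 and 25.2 ± 4.58 FPKM in PF and PF4hLPS and 14.5 ± 1.96 and 21.7 ± 2.48 in EtOH and EtOH4hLPS (SD, n = 3 per group). Ggps1 rose by 0.82 ± 0.17 log2 units in pair-fed mice (limma adjusted p = 0.0063) and by 0.55 ± 0.17 in ethanol-fed mice (limma adjusted p = 0.0465). The second call was lost when any 1 of the 6 EtOH and EtOH4hLPS libraries was left out (adjusted p up to 0.181). Ggps1 shares 257 exonic bases (5.4% of its own) with Arid4b on the opposite strand, and Arid4b rose too (0.86, adjusted p = 0.00197, and 0.70, adjusted p = 0.00746). With no strand setting given in the sources used here, fragments of the shared bases cannot be told apart.

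The other 7 genes of these steps did not pass with LPS in either diet; Idi1, 1 of them, is described with the diet comparisons. Hmgcs1, which condenses acetyl-CoA units to HMG-CoA, had the highest level of all 32 genes, with 259 ± 4.31 FPKM in PF, 267 ± 101 in PF4hLPS, 253 ± 36.7 in EtOH and 286 ± 96.6 in EtOH4hLPS (SD, n = 3). In each LPS group a single library stood high, PF4hLPS library 2 at 383 and EtOH4hLPS library 1 at 384 FPKM, while the other 4 lay between 190 and 284. These 2 libraries are also the ones with the lowest GC slopes, and the Hmgcs1 transcript is 43.1% GC. In PF library 1, also of low GC slope, Hmgcs1 was at 258 FPKM, between PF library 2 at 256 and PF library 3 at 264. The part of GC in the spread of Hmgcs1 was not tested. Mvk, the mevalonate kinase, was low at 0 to 2.22 FPKM (listed at 0 in PF4hLPS library 2), with 2.22, 1.81 and 1.59 in EtOH and 0.447, 1.41 and 1.01 in EtOH4hLPS. The EtOH4hLPS values of Mvk were all below those of EtOH, but the difference did not pass (-0.58 ± 0.26; limma adjusted p = 0.174), and passed with the GC trend removed (-0.49 ± 0.16; adjusted p = 0.0472). Acat2, a thiolase that joins acetyl-CoA units, was at 27.7, 20.8 and 30.5 FPKM in EtOH and at 34.2, 34.1 and 35.5 in EtOH4hLPS (0.40 ± 0.16; adjusted p = 0.124). Pmvk and Mvd, the later enzymes of the mevalonate route, and Fdps, the farnesyl pyrophosphate synthase, ranged from 0.979 to 10.9 FPKM over the 12 libraries with overlapping groups in both diets.

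Among the 11 genes from squalene to cholesterol, Sqle, Msmo1 and Dhcr7 changed in pair-fed mice and Fdft1 in ethanol-fed mice. Sqle, the squalene epoxidase and a rate-limiting enzyme of the later pathway (ENSMUSG00000022351, chromosome 15, 59315077 to 59331192), was at 16.9, 17.2 and 16.2 FPKM in PF and at 46.2, 59.7 and 35.9 in PF4hLPS. In ethanol-fed mice it was at 14.1, 18.3 and 19.1 FPKM in EtOH and at 30.4, 24.1 and 17.8 in EtOH4hLPS. The pair-fed groups were far apart, while 1 EtOH4hLPS library lay within the range of EtOH. Sqle rose 2.82-fold on the group means in pair-fed mice, by 1.41 ± 0.23 log2 units (SE; limma adjusted p = 0.000947). In ethanol-fed mice the ratio of means was 1.4 and the difference did not pass (0.44 ± 0.23; adjusted p = 0.23). The difference between the diets, tested as an interaction, did not pass (-0.97 ± 0.32; adjusted p = 0.988, unadjusted p = 0.0109).

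Msmo1, which removes the C4 methyl groups of sterol intermediates (ENSMUSG00000031604, chromosome 8, 64718139 to 64733792), was at 13.4, 11.5 and 18.8 FPKM in PF and at 29.2, 26.8 and 33.8 in PF4hLPS. Values were 25.6, 14.3 and 25.0 FPKM in EtOH and in EtOH4hLPS 26.7, 39.8 and 26.8. In both diets all 3 LPS libraries lay above the saline libraries, but EtOH already held 2 libraries close to the LPS level. It rose by 1.01 ± 0.26 log2 units in pair-fed mice (limma adjusted p = 0.0179), a call lost without PF library 1, PF library 2 or PF4hLPS library 3 (adjusted p up to 0.0856), and was 0.52 ± 0.26 higher without passing in ethanol-fed mice (adjusted p = 0.213).

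Fdft1, the squalene synthase that commits isoprenoids to sterol (ENSMUSG00000021273, chromosome 14, 63145150 to 63179578), was at 4.77, 5.89 and 6.39 FPKM in PF and at 9.61, 6.98 and 9.51 in PF4hLPS. In EtOH it was at 5.53, 4.89 and 5.36 FPKM and in EtOH4hLPS at 7.68, 10.99 and 8.92. All 6 LPS libraries lay above all 6 saline libraries. It rose by 0.69 ± 0.18 log2 units in ethanol-fed mice (limma adjusted p = 0.0198) and was 0.53 ± 0.18 higher without passing in pair-fed mice (adjusted p = 0.0618). The call in ethanol-fed mice was lost without any 1 of the EtOH libraries, EtOH4hLPS library 2 or EtOH4hLPS library 3 (adjusted p up to 0.0841), and Fdft1 passed in pair-fed mice without PF4hLPS library 2 (0.67 ± 0.18; adjusted p = 0.0316) and with the GC trend removed (0.63 ± 0.13; adjusted p = 0.00411). Fdft1 shares 774 exonic bases (18.3% of its own) with Ctsb, the lysosomal protease cathepsin B, on the opposite strand. Ctsb averaged 92.7 FPKM and moved in the same direction (limma 0.64, adjusted p = 0.0836, with the pair-fed diet and 0.84, adjusted p = 0.0287, with ethanol), and with the strand setting unknown their shared fragments cannot be told apart.

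Dhcr7, which reduces 7-dehydrocholesterol to cholesterol in the last step of the pathway (ENSMUSG00000058454, chromosome 7, 143823145 to 143848410), was at 23.5, 18.8 and 19.9 FPKM in PF and at 9.21, 6.99 and 11.3 in PF4hLPS. On ethanol it was at 26.6, 13.2 and 13.9 FPKM in EtOH and in EtOH4hLPS at 11.2, 15.7 and 6.41. The pair-fed groups did not overlap and the ethanol-fed groups did. Dhcr7 fell by 1.11 ± 0.32 log2 units in pair-fed mice (limma adjusted p = 0.0314), and the difference of -0.65 ± 0.32 in ethanol-fed mice did not pass (adjusted p = 0.21). The call was lost without any 1 of the PF libraries, PF4hLPS library 1 or PF4hLPS library 2 (adjusted p up to 0.0944). It was also lost without a filter on low values (limma adjusted p = 0.0948) and without the 3 libraries of low GC slope (-0.86 ± 0.41; adjusted p = 0.207). The Msmo1 call was lost in the same 2 settings (limma adjusted p = 0.0583 and 0.0656). So Sqle and Msmo1 were called higher and the last enzyme lower in the same libraries. Of these calls only that of Sqle held in all 18 alternatives, while that of Msmo1 was lost in 6 and that of Dhcr7 in 7.

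The remaining 7 genes of this stretch did not pass in either diet. Cyp51, the lanosterol demethylase, was the second most abundant of the 32 genes at 78.1 to 148 FPKM, and Ebp, the sterol isomerase, the third at 53.6 to 93.4. Both had overlapping groups with LPS in both diets (Cyp51 0.02 ± 0.20 and -0.18 ± 0.20; Ebp 0.03 ± 0.21 and 0.10 ± 0.21). Sc5d, the lathosterol desaturase, was at 22.4, 22.6 and 26.6 FPKM in EtOH and at 20.7, 13.97 and 15.6 in EtOH4hLPS. Its ethanol-fed groups did not overlap, and the difference of -0.50 ± 0.17 did not pass (limma adjusted p = 0.0757). It did pass in 6 of 18 alternatives: equal total FPKM (-0.82), quantile normalization (-0.72), median-ratio scaling (-0.56), GC trend removed (-0.57), without the 3 libraries of low GC slope and without EtOH4hLPS library 1 (-0.65 in both), with adjusted p of 0.00878 to 0.0385. Lss, the lanosterol synthase, Tm7sf2, a sterol reductase, Nsdhl and Hsd17b7, which act with Msmo1 in removing the C4 methyl groups, had fold changes between -0.53 and 0.03 with overlapping groups.

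**Figure D3:**
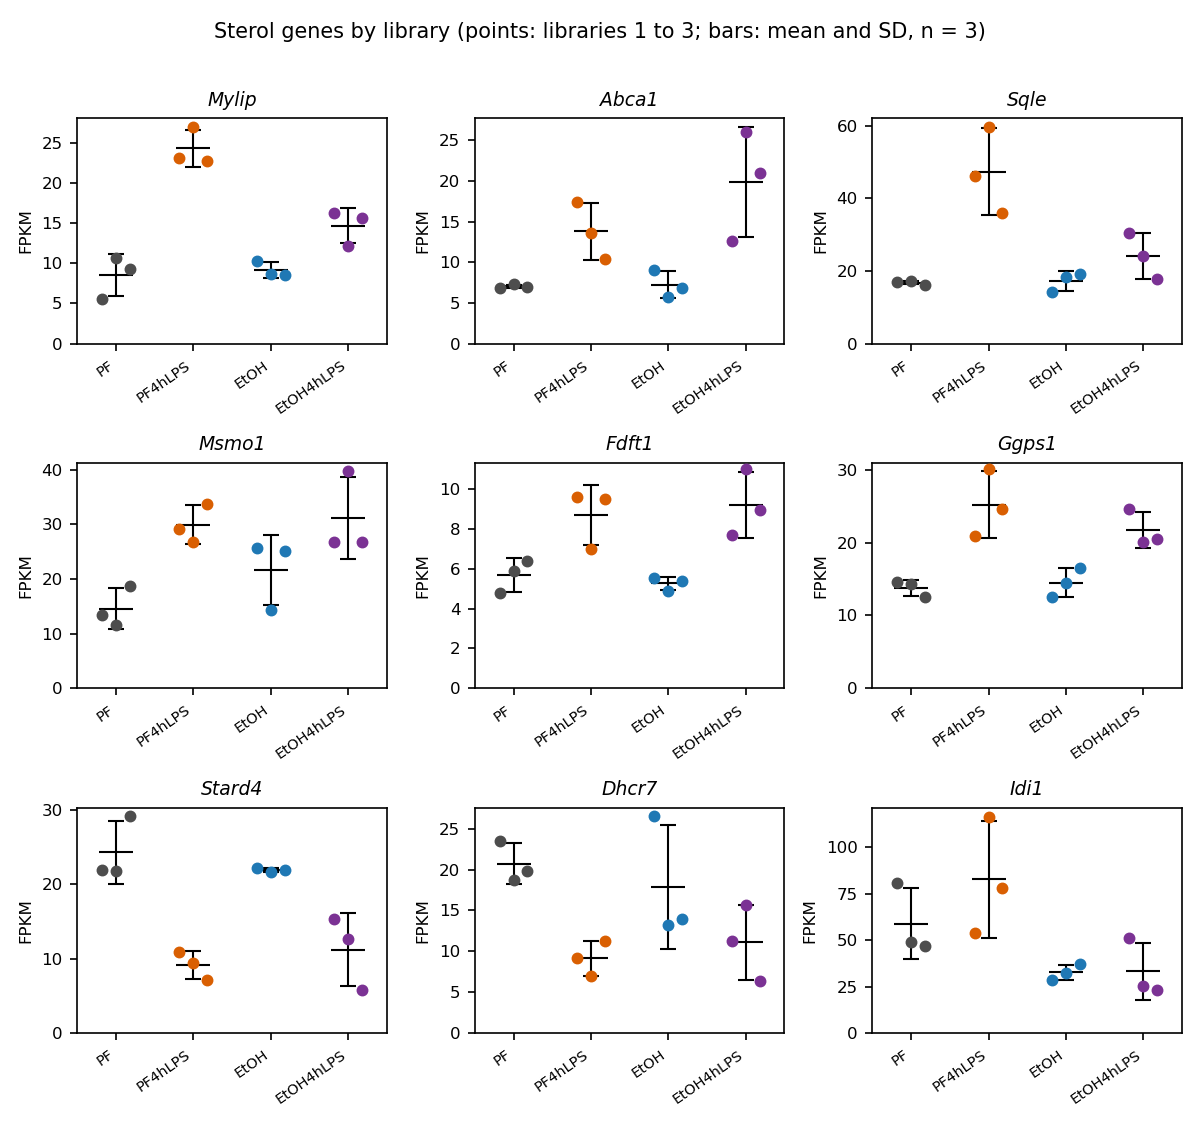
Each panel gives 1 gene, with FPKM on the y axis and the 4 groups on the x axis. Points are libraries 1 to 3, and black bars are the mean and SD (n = 3). Mylip and Sqle stand highest in PF4hLPS (22.8 to 27.0 and 35.9 to 59.7 FPKM), Stard4 is low in both LPS groups (5.72 to 15.3 FPKM), and Idi1 is low in EtOH (28.7 to 36.9 FPKM).

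The 5 genes that regulate SREBP gave no call with LPS in either diet, and all 5 overlapped between the pair-fed groups. Srebf1 and Srebf2 encode the SREBP factors themselves. Srebf1 ranged from 2.01 to 10.3 FPKM over the 12 libraries and Srebf2 from 1.56 to 3.93. The LPS difference of Srebf1 was -0.26 ± 0.49 on the pair-fed diet and -0.45 ± 0.49 on ethanol, and that of Srebf2 -0.17 ± 0.21 and 0.03 ± 0.21. The Srebf1 transcript is 58.4% GC, and its lowest values in PF, PF4hLPS and EtOH4hLPS came from PF library 1, PF4hLPS library 2 and EtOH4hLPS library 1, the libraries of low GC slope; the part of GC in its spread was not tested. Scap, the SREBP escort protein, lay between 4.45 and 10.3 FPKM. Insig2, the INSIG form that does not depend on SREBP, was the fifth most abundant of the 32 genes at 25.5 to 61.1 FPKM, with LPS differences of 0.04 ± 0.28 and -0.02 ± 0.28. Insig1, itself a target of SREBP, was at 22.7, 19.2 and 18.3 FPKM in EtOH and at 18.2, 15.7 and 12.2 in EtOH4hLPS, without overlap and without passing (-0.38 ± 0.18; limma adjusted p = 0.197), and passed with quantile normalization (-0.58 ± 0.18; adjusted p = 0.0426). The expression level of these genes does not measure the cleavage of SREBP.

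Of the 3 genes that move sterol inside the cell, Stard4 fell in both diets. Stard4 encodes a soluble carrier that brings cholesterol to the endoplasmic reticulum (ENSMUSG00000024378, chromosome 18, 33199355 to 33213862). It was at 21.9, 21.8 and 29.1 FPKM in PF and at 10.9, 9.43 and 7.17 in PF4hLPS, and at 22.2, 21.6 and 21.9 in EtOH and 15.3, 12.6 and 5.72 in EtOH4hLPS. All 6 LPS libraries lay below all 6 saline libraries. Stard4 fell by 1.32 ± 0.29 log2 units in pair-fed mice (limma adjusted p = 0.00733), to 0.377 of the PF mean, and by 1.01 ± 0.29 in ethanol-fed mice (limma adjusted p = 0.0309), to 0.511 of the EtOH mean. The second call was lost without any 1 of the EtOH libraries or without EtOH4hLPS library 3 (adjusted p up to 0.0878). The difference stayed between -1.014 and -0.997 without an EtOH library and was -0.62 without EtOH4hLPS library 3. Npc1 and Npc2 encode the pair of proteins that export cholesterol from lysosomes. Npc1 was at 4.81, 5.02 and 5.32 FPKM in EtOH and at 3.65, 3.86 and 3.80 in EtOH4hLPS, without overlap (-0.34 ± 0.14; adjusted p = 0.123), and Npc2 ranged from 9.50 to 26.9 FPKM with overlapping groups.

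In the LXR and efflux arm, Abca1 rose in both diets and Mylip in pair-fed mice. Abca1, the transporter that loads cellular cholesterol onto apolipoprotein A-I (ENSMUSG00000015243, chromosome 4, 53030787 to 53159895), was at 6.86, 7.30 and 6.92 FPKM in PF and at 17.4, 13.6 and 10.5 in PF4hLPS. In EtOH it was at 9.09, 5.79 and 6.86 FPKM and in EtOH4hLPS at 12.7, 26.1 and 20.97. All 6 LPS libraries lay above all 6 saline libraries. Abca1 rose by 0.86 ± 0.26 log2 units in pair-fed mice (limma adjusted p = 0.0402) and by 1.31 ± 0.26 in ethanol-fed mice (limma adjusted p = 0.00438), with an interaction of 0.45 ± 0.37 that did not pass (adjusted p = 0.988). The call in pair-fed mice was lost in 11 of 18 alternatives. These included leaving out any 1 of the PF libraries, PF4hLPS library 1 or PF4hLPS library 2 (limma adjusted p up to 0.113). It also missed with a pseudocount of 5 (0.0525), with quantile normalization (0.0515), without a filter on low values (0.112) and without the 3 libraries of low GC slope (0.0636).

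Mylip, the ubiquitin ligase also called IDOL (ENSMUSG00000038175, chromosome 13, 45389742 to 45412022), was at 5.57, 10.6 and 9.26 FPKM in PF and at 23.1, 27.0 and 22.8 in PF4hLPS. In EtOH it was at 10.2, 8.70 and 8.51 FPKM and in EtOH4hLPS at 16.2, 12.2 and 15.6. The LPS libraries lay above the saline libraries in both diets, and those of EtOH4hLPS lay between EtOH and PF4hLPS. Mylip rose 2.86-fold on the group means in pair-fed mice, by 1.45 ± 0.21 log2 units (limma adjusted p = 0.000479), the largest fold change among the 32 genes there. The 1.6-fold difference in ethanol-fed mice did not pass (0.62 ± 0.21; adjusted p = 0.0691; 0.55 ± 0.17 and 0.0436 without the 3 libraries of low GC slope), nor did the interaction (-0.83 ± 0.30; adjusted p = 0.988, unadjusted p = 0.0173).

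The LXR genes themselves did not pass. Nr1h3 (LXR alpha) ranged from 7.13 to 22.5 FPKM and Nr1h2 (LXR beta) from 3.57 to 11.5, with overlapping groups and LPS differences of -0.40 ± 0.33 and -0.24 ± 0.37 on the pair-fed diet and -0.29 ± 0.33 and -0.12 ± 0.37 on ethanol. Abcg1, a second efflux transporter regulated by LXR, stood at 0.804, 0.633 and 0.999 FPKM in PF and 1.04, 1.11 and 1.19 in PF4hLPS. The pair-fed groups of Abcg1 did not overlap, and the difference did not pass (0.23 ± 0.16; limma adjusted p = 0.353) and was -0.02 with libraries scaled to equal total FPKM.

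The diets were compared for their LPS responses through groups that share no library. Of the 8 genes called in either diet, 3 were called in both (Ggps1, Stard4 and Abca1), which is 3 of the 7 called on the pair-fed diet and 3 of the 4 called on ethanol. Over all genes tested, 1736 of 3231 genes called in either diet were called in both with the same sign. Msmo1, Sqle, Dhcr7 and Mylip passed in pair-fed mice alone and Fdft1 in ethanol-fed mice alone, but all 8 fold changes had the same sign in both diets, and the interaction passed for 0 of the 32 genes (limma, background 0.0284%; smallest adjusted p 0.988). At an unadjusted p under 0.05 the interaction held 2 members, Sqle and Mylip (background 4.37%).

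Neutrophil markers rose with LPS in both diets, in 5 of 6 tested genes each. Their summed level went from 3.498 to 5.60 FPKM per library in PF to 187 to 425 in PF4hLPS, and from 3.43 to 5.58 in EtOH to 170 to 262 in EtOH4hLPS. Of 10 macrophage and monocyte markers tested, 3 were called higher and 1 lower in PF4hLPS against PF, and 0 higher and 1 lower in EtOH4hLPS against EtOH, with sums of 22.6 to 32.4 FPKM in PF, 23.4 to 66.1 in PF4hLPS, 20.3 to 26.8 in EtOH and 17.97 to 28.9 in EtOH4hLPS. Of 8 endothelial markers, 6 were called lower and 1 higher in PF4hLPS, and 5 lower and 1 higher in EtOH4hLPS. Their sum lay at 103 to 129 FPKM in PF and 43.9 to 52.1 in PF4hLPS, and at 112 to 135 in EtOH and 53.2 to 66.3 in EtOH4hLPS. Of 9 proximal tubule markers 1 fell in pair-fed and 0 passed in ethanol-fed mice. Collecting duct markers were called lower in 3 of 8 genes in each diet (Avpr2, Hsd11b2 and Slc4a1), with sums of 54.6 to 75.1 FPKM in PF, 38.1 to 59.9 in PF4hLPS, 73.2 to 91.2 in EtOH and 56.96 to 86.8 in EtOH4hLPS. Of 5 podocyte markers 1 fell in pair-fed mice (Podxl; sums of 83.3 to 92.0 and 61.4 to 69.1 FPKM) and 0 passed in ethanol-fed mice, and of 6 markers of the loop of Henle and distal tubule 1 rose in each diet. The sterol genes are expressed by many cell types, and the part of these shifts in the changes of Abca1, Mylip, Stard4 and the other members was not tested. In bulk tissue, fewer cells of a type and less RNA per cell cannot be told apart.

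Around the 32 genes, 80 further genes of sterol and SREBP-linked lipid metabolism were found in the table from a list of 81, and 64 of them were tested. The largest change with LPS was that of Ch25h, which makes 25-hydroxycholesterol, an oxysterol that blocks SREBP processing and activates LXR. Ch25h was at 0.172, 0.174 and 0.315 FPKM in PF and at 7.44, 5.39 and 8.09 in PF4hLPS. In EtOH it was at 0.0370, 0.382 and 0.146 FPKM and in EtOH4hLPS at 14.8, 11.8 and 16.6. No LPS library came near the saline range, and all EtOH4hLPS libraries lay above all PF4hLPS libraries. Ch25h rose by 2.69 ± 0.19 log2 units in pair-fed mice (limma adjusted p = 1.02e-06) and by 3.69 ± 0.19 in ethanol-fed mice (limma adjusted p = 5.89e-08), and the interaction of 1.00 ± 0.27 did not pass (adjusted p = 0.847). The pseudocount sets the size of these values: they were 4.47 and 5.82 with a pseudocount of 0.1 and 1.19 and 1.89 with 5, and the ratios of the group means were 31.6 and 76.3. Neutrophil marker sums moved the same way with LPS. Between the LPS groups the sums overlapped (187 to 425 FPKM in PF4hLPS and 170 to 262 in EtOH4hLPS), while the values of Ch25h did not. The part of neutrophils in the rise of Ch25h was not tested.

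Of the 8 tested genes for oxysterols and cholesterol esters, 2 rose with LPS in pair-fed mice and 3 in ethanol-fed mice. Nceh1, a hydrolase of cholesterol esters, rose from 81.3 ± 9.48 to 143 ± 26.9 FPKM in pair-fed mice (0.80 ± 0.18; limma adjusted p = 0.00899) and from 74.0 ± 8.90 to 122 ± 4.23 in ethanol-fed mice (0.72 ± 0.18; adjusted p = 0.0162; SD, n = 3). Lipa, the lysosomal acid lipase that frees cholesterol from lipoprotein esters, rose in ethanol-fed mice from 104 ± 8.97 to 169 ± 33.1 FPKM (0.68 ± 0.20; adjusted p = 0.036), while its difference in pair-fed mice was 0.04 ± 0.20. With equal total FPKM and with quantile normalization the calls of Nceh1 in both diets and of Lipa were lost (adjusted p of 0.105 to 0.397), and that of Lipa also with the GC trend removed (0.125). The Lipa call was lost when any 1 of 5 libraries was left out (the EtOH libraries, EtOH4hLPS library 2 and EtOH4hLPS library 3; adjusted p up to 0.147). The calls of Nceh1 were lost without PF library 3 (adjusted p = 0.0514) in pair-fed mice and without EtOH library 1 or EtOH4hLPS library 3 (up to 0.0806) in ethanol-fed mice. Of 10 further genes of acetyl-CoA, ketone and isoprenoid synthesis, including Acly, 0 passed in either diet by limma.

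Of 11 genes that control SREBP processing and sterol-dependent degradation, 2 rose and 1 fell in each diet. Rnf139 and Rnf145, sterol-responsive ubiquitin ligases of the endoplasmic reticulum, rose in both. Rnf139 went from 14.8 ± 1.93 to 37.0 ± 4.76 FPKM in pair-fed mice (1.27 ± 0.18; limma adjusted p = 0.000345) and from 16.4 ± 2.74 to 28.9 ± 3.63 in ethanol-fed mice (0.79 ± 0.18; adjusted p = 0.0094; SD, n = 3). Rnf145 rose by 0.94 ± 0.19 (adjusted p = 0.00479) and by 0.63 ± 0.19 (adjusted p = 0.0393). Lpin1, a phosphatidate phosphatase that restrains nuclear SREBP, fell in pair-fed mice by 1.08 ± 0.26 (limma adjusted p = 0.0121). Its difference of -0.57 ± 0.26 in ethanol-fed mice did not pass (limma adjusted p = 0.169). Erlin1, part of a complex that binds INSIG and SREBP in the endoplasmic reticulum, fell in ethanol-fed mice from 50.2 ± 7.75 to 18.1 ± 7.27 FPKM (-1.48 ± 0.28; adjusted p = 0.00295) and was 0.588 of the PF mean in PF4hLPS without passing (adjusted p = 0.0993). With 1 library left out, the calls of Rnf139 and Erlin1 held in each case. Equal total FPKM ended the calls of Rnf139 on ethanol (0.47; adjusted p = 0.075) and of Rnf145 in both diets (0.45 and 0.31; adjusted p = 0.231 and 0.483), and quantile normalization ended those of Rnf139 (0.0518) and Rnf145 (0.247) on ethanol. Rnf145 on ethanol also missed with the GC trend removed (0.0807). The call of Lpin1 in pair-fed mice was lost without PF library 3 (adjusted p = 0.0597). On ethanol the call of Rnf145 was lost without any 1 of the EtOH libraries, EtOH4hLPS library 2 or EtOH4hLPS library 3 (adjusted p up to 0.137).

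**Figure D4:**
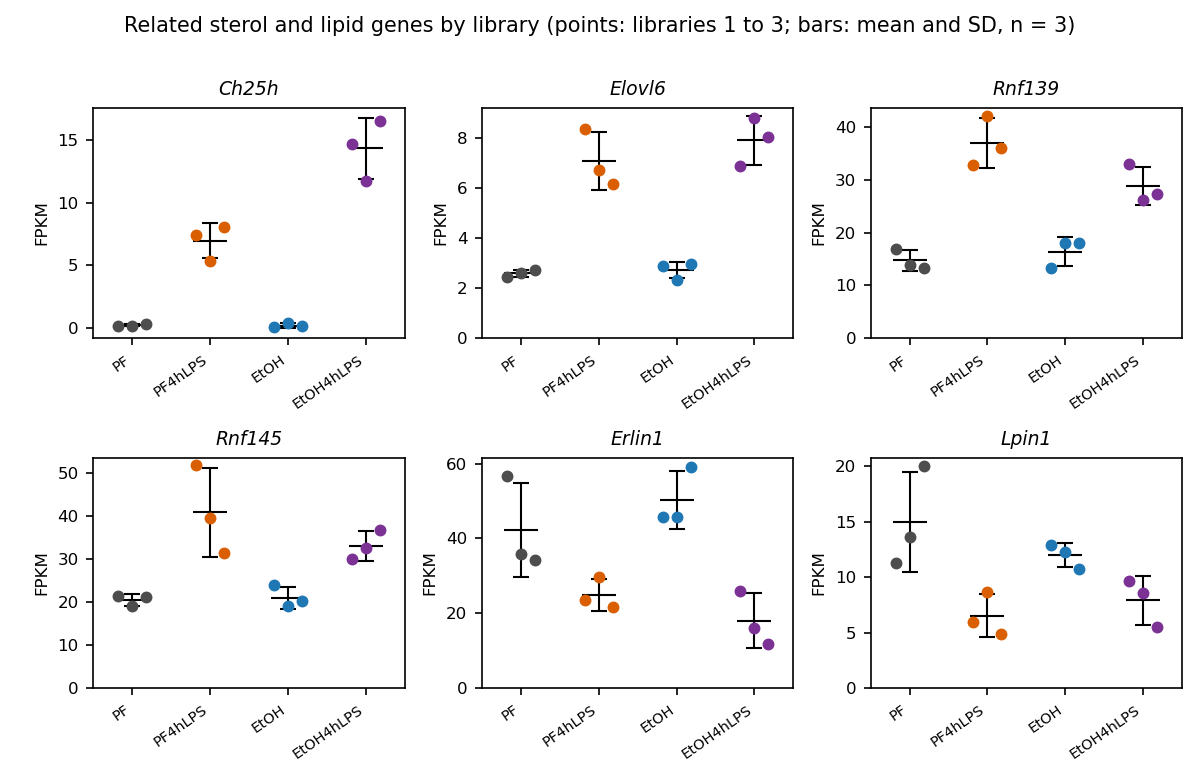
Each panel gives 1 gene outside the 32, with FPKM on the y axis and the 4 groups on the x axis. Points are libraries 1 to 3 and black bars are the mean and SD (n = 3). Ch25h is below 0.4 FPKM in all saline libraries and at 5.39 FPKM or more in all LPS libraries, while Erlin1 and Lpin1 are lower in the LPS groups. Erlin1 passed the test in ethanol-fed mice alone and Lpin1 in pair-fed mice alone.

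Of 11 tested genes of fatty acid synthesis, many of them targets of SREBP-1, Elovl6 alone passed, in both diets. Elovl6, which lengthens palmitate, was at 2.45, 2.62 and 2.72 FPKM in PF and 8.36, 6.73 and 6.14 in PF4hLPS, and at 2.87, 2.34 and 2.95 in EtOH and 6.86, 8.79 and 8.04 in EtOH4hLPS. The groups were far apart in both diets (1.16 ± 0.16, limma adjusted p = 0.000315, and 1.26 ± 0.16, adjusted p = 0.000173). Of 16 tested genes of sterol uptake and transport, 1 rose and 2 fell in each diet. Scarb2, a lysosomal membrane protein that binds cholesterol, rose by 0.66 ± 0.14 (limma adjusted p = 0.00607) and 0.54 ± 0.14 (adjusted p = 0.0187). Cav1, the cholesterol-binding coat protein of caveolae, fell by 0.77 ± 0.23 (limma adjusted p = 0.0353) and by 1.07 ± 0.23 (adjusted p = 0.00637) in pair-fed and ethanol-fed mice, where the endothelial marker sum was lower too, and the part of that shift was not tested. The RNA of Vldlr, a lipoprotein receptor that MYLIP targets as a protein, fell in pair-fed mice (-0.68 ± 0.20; limma adjusted p = 0.0388). A link between the Mylip and Vldlr values was not tested. Gramd1c, of the family that moves cholesterol from the plasma membrane, fell in ethanol-fed mice (-0.67 ± 0.18; adjusted p = 0.0237). Of 8 tested LXR partners and further efflux genes, 1 passed. Nr1h4, the bile acid receptor FXR, rose in ethanol-fed mice from 54.7 ± 7.69 to 124 ± 20.0 FPKM (1.17 ± 0.21; limma adjusted p = 0.00261; SD, n = 3). With 1 library left out, the calls of Elovl6, Nr1h4, Scarb2 in pair-fed mice and Cav1 in ethanol-fed mice held in each case. In pair-fed mice Vldlr was lost without any 1 of the PF libraries or PF4hLPS library 1 or 3 (adjusted p up to 0.137), and Cav1 without PF library 2 or 3 or any 1 of the PF4hLPS libraries (up to 0.14). In ethanol-fed mice Gramd1c was lost without EtOH library 2 or 3 or EtOH4hLPS library 2 or 3 (up to 0.0977), and Scarb2 without EtOH library 1 or 2 or EtOH4hLPS library 3 (up to 0.0875). Equal total FPKM ended the calls of Scarb2 in both diets (0.18 and 0.22; adjusted p = 0.483 and 0.467) and of Nr1h4 (0.84; adjusted p = 0.0545). Quantile normalization ended those of Scarb2 (0.0502 and 0.18) and Gramd1c (0.0615), and the call of Scarb2 in pair-fed mice was also lost without the 3 libraries of low GC slope (0.0501).

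The ethanol diet gave no call among the 32 genes. By limma 0 passed without LPS (background 0.0284%, unadjusted p under 0.05 for 1 member and 3.69% of all genes), 0 with LPS (background 0.0992%, unadjusted 5 members and 10.8%) and 0 averaged over both (background 0.319%, unadjusted 4 members and 9.45%). These comparisons share their libraries with the LPS comparisons. Without LPS the groups did not overlap for 2 members that were higher in EtOH and 2 that were lower (background 5.63% and 6.93%), and with LPS for 0 that were higher and 4 that were lower in EtOH4hLPS (5.34% and 5.59%). The SE of a member's diet difference had a median of 0.259 log2 units.

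Idi1, which isomerises isopentenyl pyrophosphate in the mevalonate route (ENSMUSG00000058258, chromosome 13, 8885501 to 8892451), was below its pair-fed counterpart in both LPS states without overlap. It was at 80.7, 49.0 and 46.6 FPKM in PF and at 28.7, 32.2 and 36.9 in EtOH, and at 53.7, 116 and 78.2 in PF4hLPS and 51.0, 25.2 and 23.2 in EtOH4hLPS. The highest value of each of PF, PF4hLPS and EtOH4hLPS came from the library of low GC slope, and the Idi1 transcript is 41.9% GC. The EtOH mean was 0.554 of the PF mean (-0.79 ± 0.34; limma adjusted p = 1), and the EtOH4hLPS mean was 0.401 of the PF4hLPS mean (-1.31 ± 0.34; adjusted p = 0.172). Averaged over both LPS states the difference was -1.05 ± 0.24 (adjusted p = 0.128), and it passed with the GC trend removed from each library (-0.99 ± 0.17; limma adjusted p = 0.0275) and without the 3 libraries of low GC slope (-0.97 ± 0.15; adjusted p = 0.0355). It lies opposite an annotated antisense gene, Gm48574, over 323 exonic bases (9.2% of its own).

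**Figure D5:**
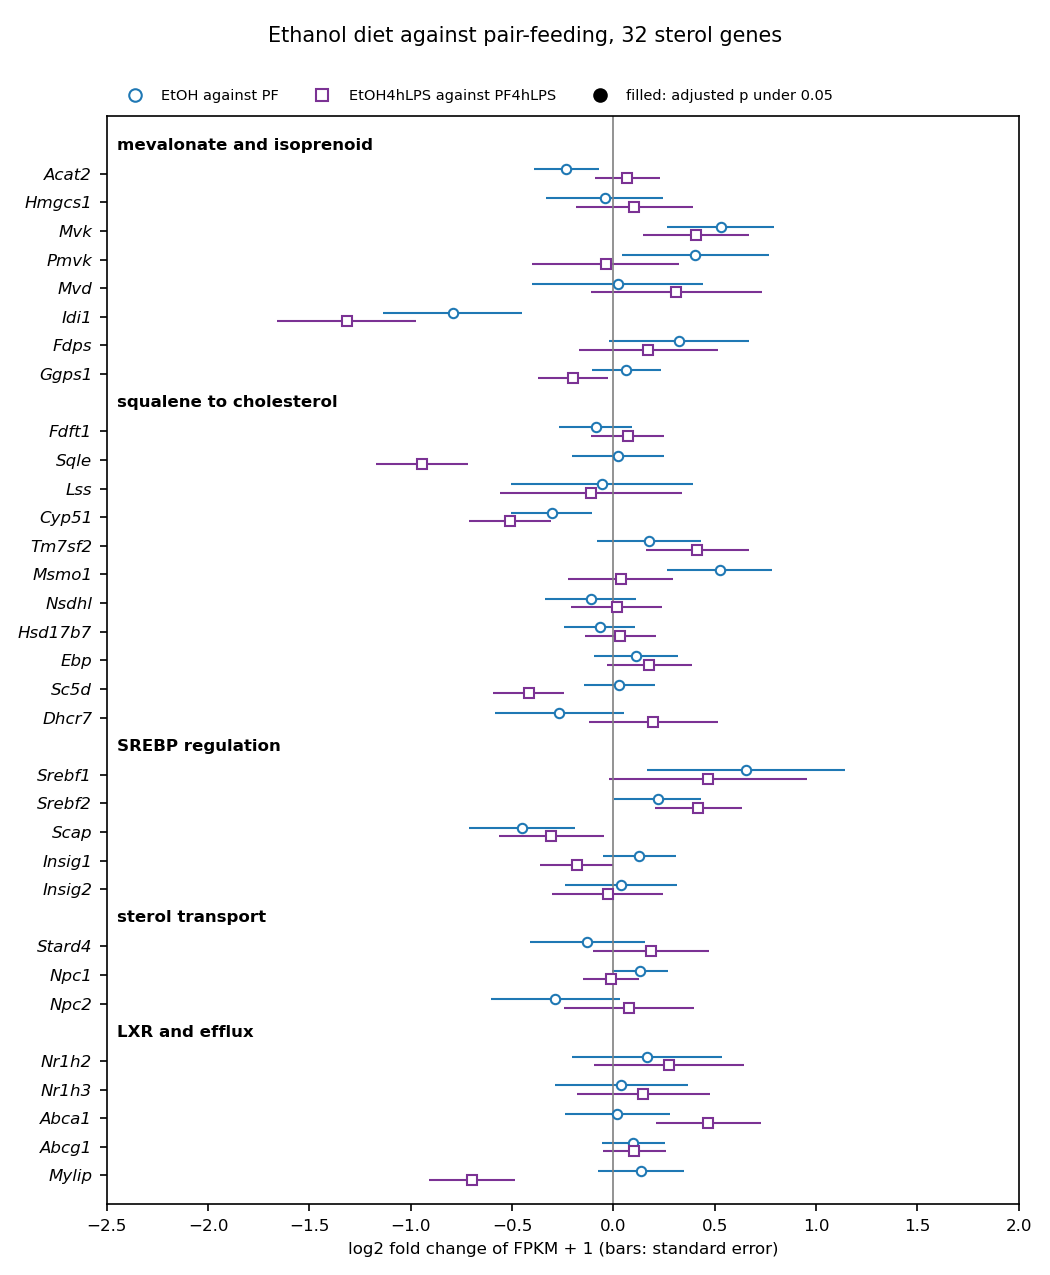
The x axis is the log2 fold change of FPKM + 1 for the ethanol diet against pair-feeding, with bars of 1 standard error, and the y axis lists the 32 genes by role. Circles compare EtOH with PF and squares compare EtOH4hLPS with PF4hLPS, and no symbol is filled because no gene passed. Idi1 lies farthest left in both (-0.79 and -1.31), and Sqle (-0.95) and Mylip (-0.70) lie left of 0 with LPS and at 0.02 and 0.14 without it.

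With LPS given, Sqle, Mylip and Cyp51 were also lower in EtOH4hLPS than in PF4hLPS without overlap, and none of the 3 passed. The EtOH4hLPS mean was 0.51 of that in PF4hLPS for Sqle (-0.95 ± 0.23; limma adjusted p = 0.136), 0.604 for Mylip (-0.70 ± 0.21; adjusted p = 0.245) and 0.701 for Cyp51 (-0.51 ± 0.20; adjusted p = 0.393). For Sqle and Mylip these are the same PF4hLPS libraries whose values entered the LPS comparison. Without LPS the differences of Sqle and Mylip were 0.02 ± 0.23 and 0.14 ± 0.21. Fold changes for the diet with LPS ran with GC content over all 14063 genes that had a GC value (Spearman 0.347, a description over genes that share the 6 libraries), against -0.034 without LPS. The same correlation was -0.309 for LPS in pair-fed mice, -0.103 for LPS in ethanol-fed mice and 0.333 for the interaction. With the GC trend removed the diet differences with LPS were -0.94 for Sqle, -0.71 for Mylip, -0.47 for Cyp51 and -1.18 for Idi1, and none passed (adjusted p of 0.0671 to 0.338). With equal total FPKM they were -0.69 for Sqle, -0.44 for Mylip, -0.25 for Cyp51 and -1.05 for Idi1, and none passed (limma adjusted p of 0.223 to 0.675). The other members outside overlap were Mvk, at 0.689, 0.964 and 1.35 FPKM in PF and 2.22, 1.81 and 1.59 in EtOH (0.53 ± 0.26; adjusted p = 1), Scap, at 8.40, 8.87 and 10.3 in PF and 7.86, 7.54 and 4.45 in EtOH (-0.45 ± 0.26; adjusted p = 1), and Npc1, at 4.35, 4.61 and 4.63 in PF and 4.81, 5.02 and 5.32 in EtOH (0.13 ± 0.14; adjusted p = 1).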

How the data were processed

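RNA was measured in 12 kidney cortex libraries, 3 in each of 4 groups, from ribosome-depleted, stranded total RNA per the labels' protocols. The authors deposited 1 table of FPKM values; the submitters' processing notes name build mm10 and, among the tools, TopHat2 (2.0.4) and the Cufflinks suite (2.2.1, with Cuffdiff 2.1.1 and Cuffnorm). The sources used here do not give the annotation release or strand setting. FPKM are not counts, so no count model was run. Of the Ensembl identifiers 47305 matched GENCODE M21 and 414 did not.

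Values were analysed as log2(FPKM + 1) for genes that reached 1 FPKM in 3 or more libraries. limma 3.58.1 (R 4.3.3) fitted 1 mean per group to all 12 libraries, with trended, robust variances, for 6 two-sided comparisons, of which the interaction was added here, and Benjamini-Hochberg adjustment ran over all 14109 genes at a threshold of 0.05. The script was tested on simulated data with independent noise for each gene and library. Those data held no GC trend and no difference of scaling between libraries, so the test does not cover these features. A permutation test of 3 against 3 libraries cannot go below p = 0.1, so none is given. Per-library values were printed for members past the threshold and, of the others, for those whose groups did not overlap, with ranges for the rest; genes outside the members were named where they passed. Acat2 has a near-identical neighbour, Acat3, and the authors' counting could split their fragments. Alternatives were other pseudocounts (0.1 and 5), filters, scalings and variance models, a replicate block, leaving out libraries, and, chosen after seeing the data, removal of the GC trend and of 3 libraries together. The members and lists were chosen with earlier results of these data known. Some genes of the wider pathway are not reported here.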

Additional observations from a re-analysis of the deposited data

How the results depend on the processing

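With LPS in pair-fed mice, 7 members passed as reported. The count was 4 without a filter on low values, 4 with libraries scaled to equal total FPKM (2 rose and 2 fell) and 4 without the 3 libraries of low GC slope, and 4 to 6 when 1 library was left out; it was 8 with the GC trend removed (Fdft1 added). It was 4 without PF library 1 or PF library 2, with Ggps1, Mylip, Sqle and Stard4 called in each; Sqle, Mylip and Stard4 passed in all 18 alternatives. In ethanol-fed mice 4 passed as reported, 1 without a filter, 2 with equal total FPKM (0 rose and 2 fell, Sc5d and Stard4), 2 with only the groups compared in the fit, and 1 to 4 when 1 library was left out. It was 6 with the GC trend removed (Mvk and Sc5d added), 5 with quantile normalization (2 rose and 3 fell; Sc5d and Insig1 added, Ggps1 lost) and 5 without the 3 libraries of low GC slope (Sc5d and Mylip added, Ggps1 lost). Without any 1 of the EtOH libraries or EtOH4hLPS library 3, only Abca1 passed, and without EtOH4hLPS library 2 the count was 2. With the ethanol diet and LPS, 1 member (Idi1) passed without the 3 libraries of low GC slope. Averaged over both LPS states, 1 member (Idi1) passed with the GC trend removed and 1 (Idi1) without those 3 libraries. For the diet without LPS and the interaction the count was 0 in every alternative run. Equal total FPKM brought the member medians with LPS to -0.50 on the pair-fed diet and -0.35 on ethanol (-0.25 and -0.24 with quantile normalization), and it turned the difference of Abcg1 in pair-fed mice to -0.016. Where a call changed with fewer libraries, the fit had fewer samples; for the other settings the cause was not tested.

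With the replicate number as a block, 6 members passed with LPS in pair-fed mice (Abca1 lost) and 3 in ethanol-fed mice (Ggps1 lost), and the block changed no count of the diet comparisons. Correlations of same-numbered libraries, taken on deviations from the group means, ran from -0.206 to 0.237. These deviations also hold the GC trend of each library, so they cannot show whether the numbers pair the libraries. Depth is unknown in fragments, and values near 1 FPKM (Mvk, Abcg1) rest on few.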
